A study of Mus with 6 samples.

Results

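The genes described here were chosen by their measured levels, as genes whose mRNA was consistently lower in mouse lens epithelial cells (LECs) at 6 h after surgical removal of the lens fiber cells (post cataract surgery, PCS) than at 0 h PCS. A gene was taken when its level was at least 5 CPM (counts of a gene per 1000000 counts) in every 0 h library and when its lowest 0 h level was at least 1.5 times its highest 6 h level. Of 55421 genes counted, 16810 passed the filter of edgeR on low counts and were tested, 9434 of these had the level asked for at 0 h PCS, and 135 met the whole rule. The rule leaves out crystallins, Col4a genes and 10 other genes by name, which removed Hif3a, Arrdc2, Ciart, Klf15, Msx2, Fkbp5, Dusp15, Map3k21 and Tef, so that 126 genes remained. G0s2 and Ppcs, which had been proposed as markers of the group, are not among them, because both lay below 5 CPM at 0 h PCS. The mirrored rule, with the time points exchanged, took 618 genes.

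All LECs came from wild type C57BL/6 mice that had undergone the operation, and their RNA was taken from the dissected lens capsule with the cells attached. The 0 h PCS and the 6 h PCS group each held 3 libraries, and each library was made from total RNA of 5 pooled capsules. The labels give an age of 2 months, whereas the methods of the study describe older mice. The first eye was operated 6 h before the other, and both capsules were taken at the same time, so that pools of the 2 groups may share mice, which the labels do not resolve. A capsule can carry other cells of the eye, and in such bulk samples fewer cells of a type and less RNA per cell cannot be told apart. The lens epithelial markers Pax6, Foxe3 and Epha2 were present in every library, with a summed level of 625 to 817 CPM at 0 h PCS and 589 to 759 CPM at 6 h PCS. They did not move together. Epha2 rose from 68.8 ± 20.6 to 159 ± 36.6 CPM (SD, n = 3; edgeR FDR 0.0134, a call lost without 0 h replicate 3), while Pax6 had 573 ± 90.3 and 402 ± 104 CPM and Foxe3 86.9 ± 10.2 and 106 ± 6.16 CPM, neither of which passed the test with all libraries. Without 6 h replicate 1, or without the filter on low counts, or with library size alone, 1 of the 3 markers was called lower.

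The lens epithelium is a sheet of cells on the inner face of the anterior capsule. It supplies the cells that become lens fibers, and after cataract surgery the LECs left behind enter a wound response. An mRNA level reflects both synthesis and decay, and it can drop no faster than existing transcripts are degraded. C2H2 zinc finger proteins are the largest family of mammalian DNA-binding proteins, and many carry a KRAB domain that recruits the corepressor Trim28 to chromatin. Their genes often sit in clusters that arose by tandem duplication.

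The libraries held between 18039974 and 24701039 counts on genes. Levels are given as CPM on library sizes scaled by TMM, with factors of 1.09 to 1.15 for the 0 h libraries and 0.827 to 0.990 for the 6 h libraries. Summed over the 126 genes, the level was 2832, 2757 and 2860 CPM in the 0 h libraries and 1330, 1447 and 1212 CPM in the 6 h libraries. Markers of other cells were compared as well. The 4 erythrocyte markers, all called higher by edgeR at an FDR of at most 0.05 (2 of 4 without 0 h replicate 3), against 16.2% of the named genes, summed to 4.96 to 10.7 CPM at 0 h PCS and 45.4 to 85.5 CPM at 6 h PCS, the corneal epithelial markers Krt5 and Krt12 to 0.765 to 14.7 and 69.2 to 104 CPM, and the 4 pigment cell markers to 51.4 to 209 and 77.4 to 1965 CPM. The 6 leukocyte markers ran from 13.5 to 22.6 and from 16.8 to 32.3 CPM, and of these Cd68 rose from 1.03 ± 0.451 to 5.99 ± 2.92 CPM (SD, n = 3; edgeR FDR 0.0129), a call lost without 0 h replicate 1 or 6 h replicate 3. The summed level ran for the 3 endothelial markers from 3.75 to 25.9 and from 19.3 to 35.8 CPM, and for the fibroblast genes Col1a1 and Dcn from 10.1 to 20.7 and from 6.24 to 119 CPM. By edgeR with all libraries, no corneal, pigment cell, endothelial or fibroblast marker was called. With DESeq2, 2 corneal and 2 endothelial markers were called higher. None of the markers of other cells was at 0 in any library, and none is among the 126 genes. The part of these markers in the differences described here was not tested.

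Among themselves the 126 genes varied more in level than in the size of the difference. The mean level at 0 h PCS ran from 5.52 to 273 CPM with a median of 13.1 CPM, against a median of 26.5 CPM for the 9434 genes that had the required level. Below 20 CPM lay 89 genes, and above 50 CPM lay 8. At 6 h PCS, between 21.4% and 62.3% of the 0 h mean was left, with a median of 45.7%, and 91 genes were below 50%. The log2 fold change of 6 h against 0 h PCS ran from -2.22 to -0.68 with a median of -1.13, while the median over all genes tested was -0.003. The lowest 0 h level exceeded the highest 6 h level by a median factor of 1.64, and by at least 2 in 10 genes. These values chose the genes and are given as a description.

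By the quasi-likelihood test of edgeR, adjusted by Benjamini-Hochberg to a false discovery rate (FDR), 104 of the 126 genes had an FDR of at most 0.05, and the share of all genes tested that were lower by this criterion was 2.02%. With a fold change above 2 as well, the count was 77 genes, against 0.821% of all genes. All 126 had separated libraries by construction, whereas in 15.3% of all genes tested every 0 h library lay above every 6 h library. Nothing is read from these counts, because the same libraries chose the genes. The remaining 22 genes met the rule without passing the test. Library by library, the lowest 0 h value came from replicate 1 in 41 genes, replicate 2 in 47 and replicate 3 in 38, and the highest 6 h value came from replicate 1 in 39, replicate 2 in 57 and replicate 3 in 30. Without 1 library the rule took more genes, namely 201, 241 and 181 without 0 h replicate 1, 2 and 3 and 238, 331 and 202 without 6 h replicate 1, 2 and 3. With library size alone in place of TMM it took 507 genes, which included all 126, and the median over all genes tested moved to -0.32.

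**Figure D1:**
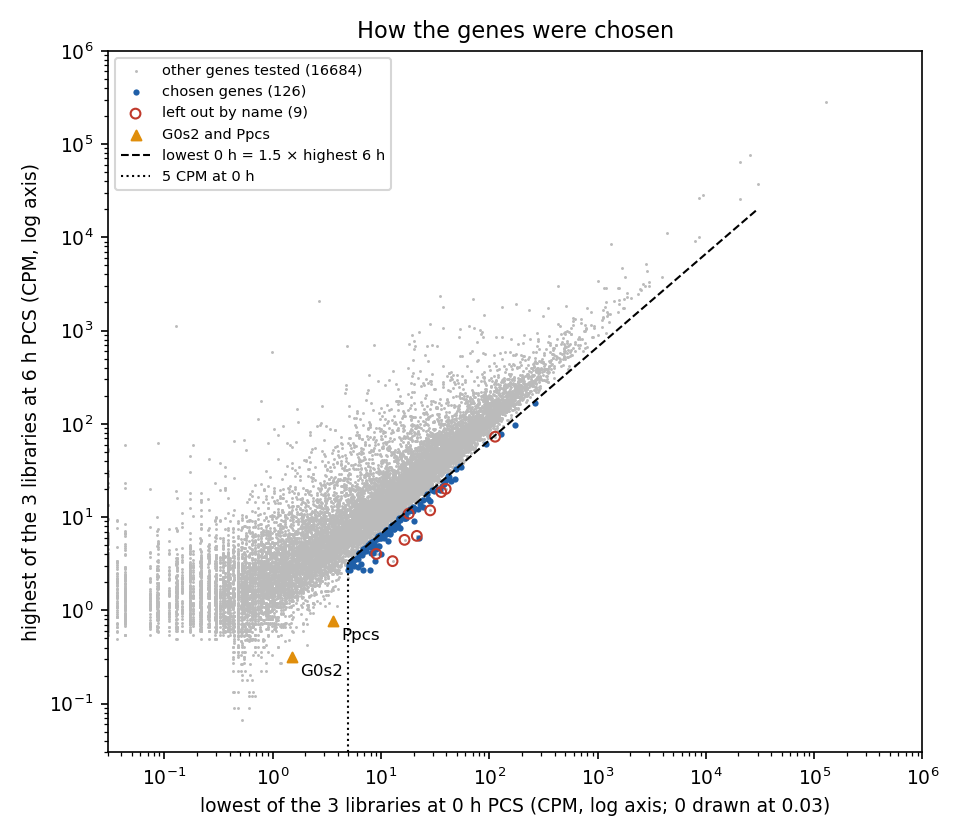
Lowest of the 3 libraries at 0 h PCS (x axis) against the highest of the 3 libraries at 6 h PCS (y axis), in TMM-normalized CPM on log axes, for the 16810 genes tested. The 126 chosen genes (blue) lie below the dashed line of a 1.5-fold gap and to the right of 5 CPM, the 9 genes left out by name are circled, and G0s2 and Ppcs (triangles) lie to the left of the level asked for.

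The thresholds cut through a continuum. Just inside the ratio lay Prodh (0 h PCS 41.5, 41.1 and 42.1 CPM, 6 h PCS 21.5, 22.6 and 27.4 CPM), Zfp709 and Zfp287, and just outside it lay Psmd5 (28.0, 28.1 and 30.4 CPM, then 15.3, 16.3 and 18.7 CPM), Ccdc93 and Osbpl2. Just inside the level lay the pseudogene Gm14586, Gatd1 and Zfp958, whose lowest 0 h values were 5.01, 5.03 and 5.06 CPM, and just outside it lay Rwdd3, Zswim1 and Zfp937 at 4.90, 4.86 and 4.82 CPM. The lowest count of any chosen gene in a 0 h library was 116. G0s2 encodes an inhibitor of the lipase Pnpla2 and lies at chr1:193272160-193273188 (GRCm38.p6). Its level was 2.07, 1.75 and 1.51 CPM at 0 h PCS and 0.134, 0.315 and 0.120 CPM at 6 h PCS, from 35 to 48 counts and then 2 to 7 counts per library. Ppcs, the second enzyme of coenzyme A synthesis, lies at chr4:119418527-119422440. It had 4.43, 3.57 and 3.62 CPM at 0 h PCS and 0.738, 0.764 and 0.602 CPM at 6 h PCS. Both genes thus had gaps between the time points above 4-fold, at levels under the limit of the rule.

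The widest gap belonged to a gene without a symbol in the sources used here, ENSMUSG00000068855, with 30.0, 24.2 and 22.6 CPM at 0 h PCS and 4.97, 6.03 and 5.42 CPM at 6 h PCS. Among named genes it belonged to Zfp120, a zinc finger gene at chr2:150114407-150136678, with 8.22, 8.67 and 7.85 CPM and then 2.42, 2.74 and 1.20 CPM (log2 fold change -1.95 ± 0.36 SE). Gpr157, which encodes an orphan G protein-coupled receptor (chr4:150087503-150105927), had 9.34, 11.6 and 8.85 CPM and then 3.36, 2.43 and 2.41 CPM (-1.86 ± 0.29). The 3 genes kept 21.4% to 27.6% of their 0 h mean. In none of them did a 6 h library come near a 0 h library, which follows from choosing the widest gaps. Zfp286 went from 7.66, 6.78 and 8.93 CPM to 2.68, 2.61 and 2.05 CPM. Napepld encodes the phospholipase D that releases N-acylethanolamines, and it went from 21.8, 20.3 and 22.9 CPM to 9.20, 8.59 and 7.71 CPM. Cdc25a encodes the phosphatase that activates cyclin-dependent kinases at entry into S phase, and its levels of 6.15, 6.52 and 6.69 CPM were followed by 2.82, 2.92 and 2.29 CPM. The replicates of Napepld and Cdc25a lay close together at both times. Lysmd4, by contrast, had 6.50, 8.27 and 8.72 CPM and then 2.42, 3.15 and 0.482 CPM, with its 6 h replicate 3 well below the other two. Leaving out predicted and clone-named genes, of which Gm7072 and AI987944 had gaps as wide, the 12 named genes with the widest gap held 7 zinc finger genes, and the others were Gpr157, Napepld, Cdc25a, Lysmd4 and Dclre1b.

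**Figure D2:**
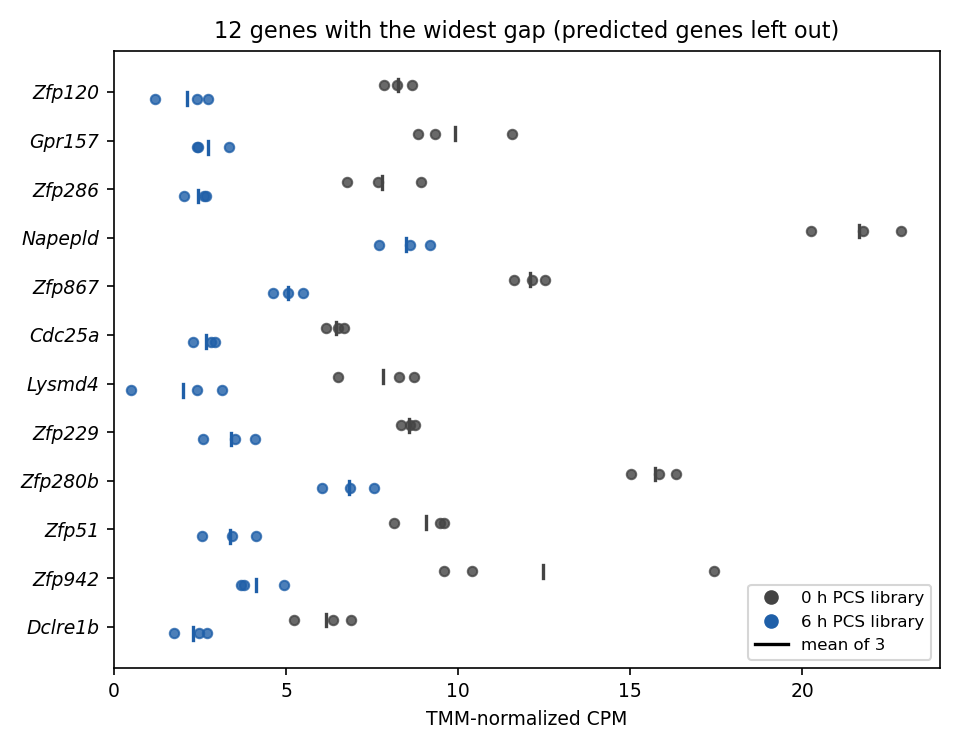
TMM-normalized CPM (x axis, from 0) of the 12 named genes with the largest ratio of the lowest 0 h to the highest 6 h library, predicted and clone-named genes left out, with each of the 3 libraries per time point as a dot and their mean as a bar. The dots of the time points do not overlap in any of the 12, which is what the rule asks for, and Zfp942 has 1 library at 0 h PCS (17.4 CPM) well above its other two.

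Of the 5 most abundant of the 126 genes, none had a symbol of the zinc finger list, although Sall1, described further on, is a zinc finger factor. Sec14l1, a lipid-binding protein of the Sec14 family (chr11:117115168-117159268), had 278, 266 and 275 CPM at 0 h PCS and 166, 162 and 147 CPM at 6 h PCS, a log2 fold change of -0.78 ± 0.13. Sox2ot, a long noncoding RNA whose locus contains Sox2 (chr3:34560381-34677993), had 218, 172 and 196 CPM and then 71.1, 96.4 and 53.8 CPM (-1.40 ± 0.21). Arhgap24, a GTPase-activating protein for Rac (chr5:102207198-102905035), had 169, 147 and 128 CPM and then 78.4, 77.8 and 73.7 CPM. Ntn4, a netrin of basement membranes (chr10:93641049-93745972), had 117, 94.0 and 97.7 CPM and then 49.9, 60.3 and 31.7 CPM. Arhgap24 had nearly equal 6 h libraries, whereas those of Sox2ot and Ntn4 spread widely, with replicate 3 the lowest in both. Per length of exon, Sec14l1 was the most abundant at 0 h PCS with a mean of 38.1 FPKM, followed by Ntn4 with 27.5 FPKM and Ddit4 with 18.6 FPKM. Of the 117 genes with an exon length at hand, 91 were above 2 FPKM at 0 h PCS and 42 at 6 h PCS.

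Zinc finger genes made up the largest group. By their symbols, 31 of the 118 named members (26.3%) are C2H2 zinc finger genes, whereas such genes were 3.54% of the named genes with the required level and 0.812% of the named genes that the mirrored rule took. Over the whole family, 179 named genes were tested, and 51 of them were called lower and 12 higher at an FDR of at most 0.05 by edgeR, against 2.02% lower and 6.31% higher of all genes tested. Most of the called genes had a name but most other genes had none, so the shares among the 6372 named genes, 5.02% lower and 16.2% higher, are the closer background. If every zinc finger gene that RefSeq lists and that has no name here had been tested without a call, 11.2% of 456 would have been lower and 2.63% higher. The 31 chosen genes are part of the 51 only as far as they passed the test, and 24 of the 148 zinc finger genes outside the rule were called lower.

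The median log2 fold change of the 179 zinc finger genes was -0.74 and that of the 148 outside the rule -0.61, whereas the median over all named genes tested was 0.19. Below 0 were 149 of the 179, and 118 of the 148 outside the rule, against 2565 of the 6372 named genes. In 108 of the 179 (60.3%) every 0 h library lay above every 6 h library, a pattern found in 16.4% of the named genes. The 108 include all chosen zinc finger genes, for which the rule itself required this pattern. Outside the rule, 77 of the 148 showed it. The count of calls depended on each library, since it was 10, 29 and 13 without 0 h replicate 1, 2 and 3 and 37, 33 and 29 without 6 h replicate 1, 2 and 3, while the median stayed between -0.83 and -0.71. It was 89 with DESeq2, 82 without a filter on low counts and 105 with library size alone. The count of 12 higher was 6, 6 and 8 without 0 h replicate 1, 2 and 3, 9, 8 and 8 without 6 h replicate 1, 2 and 3, and 5 with library size alone.

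Within the 31, the level at 0 h PCS ran from 5.84 to 44.6 CPM with a median of 12.4 CPM, and the log2 fold change from -1.95 to -0.85 with a median of -1.18. The other members had a median of -1.12, and both medians were bounded by the rule. Zfp867 had 11.6, 12.1 and 12.5 CPM at 0 h PCS and 4.63, 5.49 and 5.06 CPM at 6 h PCS. Zfp280b had 15.02, 16.3 and 15.8 CPM and then 6.04, 7.55 and 6.87 CPM. Zfp51 had 9.47, 8.13 and 9.58 CPM and then 2.55, 4.14 and 3.43 CPM. In these 3 genes the 6 h level was 37.3% to 43.4% of that at 0 h PCS. Zfp942 was uneven at 0 h PCS, with 10.4, 9.58 and 17.4 CPM and then 3.69, 3.78 and 4.94 CPM. Zfp975 had 5.98, 6.05 and 5.48 CPM and then 3.09, 1.98 and 2.23 CPM.

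Outside the rule, the zinc finger genes Zfp119b (4.16 ± 0.324 CPM, SD, n = 3, to 0.924 ± 0.174 CPM) and Zfp72 (3.17 ± 1.20 to 0.302 ± 0.362 CPM) fell at an edgeR FDR of 0.0115 and 0.0328, with log2 fold changes of -2.16 and -3.28, and were kept out by the level. More abundant ones were kept out by the ratio, among them Zfp292 (104 ± 2.89 to 68.8 ± 13.6 CPM, FDR 0.0495) and Zfp651 (79.4 ± 4.79 to 49.1 ± 4.47 CPM, FDR 0.0124). The family did not move in 1 direction. Zbtb21 rose from 33.9 ± 3.85 to 111 ± 18.3 CPM (edgeR FDR 0.00041), Zfp655 from 42.4 ± 7.72 to 122 ± 4.85 CPM (edgeR FDR 0.000537) and Zfp703 from 13.8 ± 1.87 to 40.6 ± 14.3 CPM (edgeR FDR 0.00728). Counts of zinc finger genes can be uncertain, because near copies share sequence and the counting may split or drop their reads.

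**Figure D3:**
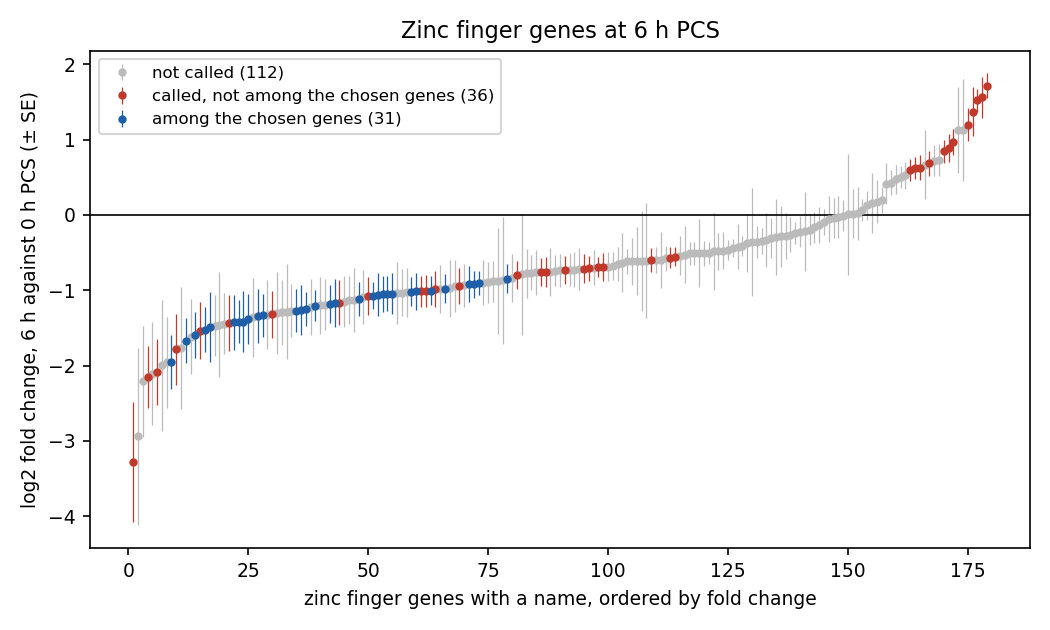
Log2 fold change of 6 h against 0 h PCS from the edgeR fit (y axis, with standard errors) of the 179 named zinc finger genes tested, ordered along the x axis. The 31 chosen genes (blue) lie between -1.95 and -0.85, 149 of the 179 lie below 0, and 12 of the called genes lie above 0.

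Several chosen zinc finger genes are neighbours. Of the 31, 7 lie on chromosome 17, where 10 of all chosen genes with coordinates lie, and 5 on chromosome 11. Within 200 kb of each other lay 7 pairs of chosen genes, and in 5 pairs both were zinc finger genes: Zfp354c and Zfp2, Zfp287 and Zfp286, Zfp229 and Zfp942, Zfp799 and Zfp763, and Zfp157 and Zfp68. Zfp287 (chr11:62692444-62731912) and Zfp286 (chr11:62751951-62789506) are 20.04 kb apart. Zfp287 had 9.51, 11.5 and 11.1 CPM at 0 h PCS, all above the values of Zfp286 given before, and 52.9% was left at 6 h PCS for Zfp287 and 31.4% for Zfp286. Zfp229 (chr17:21730955-21748969) had 8.60, 8.34 and 8.76 CPM and then 4.09, 3.51 and 2.59 CPM, and its neighbour Zfp942 lies at chr17:21926960-21962503. On chromosome 17, all 20 zinc finger genes tested had a log2 fold change below 0, and edgeR called 9 of them lower and none higher at an FDR of at most 0.05, against 51 lower (28.5%) and 12 higher (6.7%) of the 179 in the whole family, of which 149 lay below 0. Chromosome 17 was singled out after the values had been seen.

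Of the 117 chosen genes placed in RefSeq, 114 are protein-coding, Sox2ot and Foxd2os are long noncoding RNAs, and Gm14586 is a pseudogene. Their genomic span had a median of 18378 bases, against 31303 bases for the named genes with the required level and 22356 bases for the genes of the mirrored rule. This held for the zinc finger members (18015 bases) and for the others (18401.5 bases). The span of zinc finger genes outside the rule that had the required level was also short, with a median of 19756 bases. Gene span was not used by the rule, but named genes are no random sample of all genes, and no test was made.

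Regulators of growth signalling formed a second group. Of 21 tested genes on a list of regulators of PI3K, mTORC1 and cell growth, most of them inhibitors, edgeR called 12 lower (57.1%) and 2 higher (9.52%) at an FDR of at most 0.05, against 5.02% and 16.2% of the named genes. The median log2 fold change of the list was -0.67, and 6 of its genes are among the 126. Like the other lists, it was picked with earlier results of these libraries in view, so its count is not independent evidence of a direction. Trp53inp1, a p53 target that promotes cell cycle arrest, had 28.4, 35.1 and 36.5 CPM at 0 h PCS and 12.01, 14.8 and 10.7 CPM at 6 h PCS. Pik3ip1, a membrane protein that inhibits PI3K, had 16.7, 19.4 and 23.3 CPM and then 9.73, 6.93 and 3.67 CPM. Ddit4, which inhibits mTORC1 under stress, had 26.2, 47.7 and 24.2 CPM and then 15.1, 12.1 and 6.51 CPM. The 0 h replicate 2 of Ddit4 stood above its other 0 h libraries. Hbp1, a transcriptional repressor of cell cycle genes, had 36.7, 43.4 and 42.3 CPM and then 16.9, 21.8 and 19.7 CPM. Prkaa2, the alpha 2 catalytic subunit of AMPK, had 33.5, 34.4 and 37.8 CPM and then 19.8, 15.1 and 20 CPM. Klhl24, a substrate adaptor of a cullin 3 ubiquitin ligase, had 46.9, 47.8 and 44.2 CPM and then 22.5, 24.5 and 16.1 CPM.

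Of the other genes on this list, Sesn1, a stress-induced inhibitor of mTORC1, fell from 49.7 ± 8.77 to 26.4 ± 4.41 CPM (SD, n = 3; edgeR FDR 0.0151), and Cdkn1b, the cell cycle inhibitor p27, from 54.8 ± 3.56 to 33.2 ± 3.02 CPM (edgeR FDR 0.0124). Mxd4, Mxi1, Castor2 and Rragc were also called lower. In the other direction, Irs2, an adaptor that activates PI3K downstream of the insulin receptor, rose from 48.9 ± 5.80 to 221 ± 69.3 CPM (edgeR FDR 0.000531), and Sesn2, which like Sesn1 inhibits mTORC1, from 2.19 ± 0.511 to 6.10 ± 1.43 CPM (edgeR FDR 0.0316). The called genes thus include activators, Irs2 among those higher and, among those lower, Rragc, a GTPase through which amino acids activate mTORC1. Without 1 library, 5 to 11 of the 21 were called lower, the fewest without 0 h replicate 1, with 6 each without 0 h replicate 2 or 6 h replicate 2, and 1 to 3 were called higher.

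A further group was a list of transcription factors drawn up for the eye and lens. It also holds factors not specific to the eye, such as Tfap4 and Plag1. Of 18 tested, edgeR called 13 lower (72.2%) and none higher at an FDR of at most 0.05, against 5.02% and 16.2% of the named genes. The median log2 fold change of the list was -0.81, and 6 of its genes belong to the 126. Mycn, a proto-oncogene of the Myc family, had 27.4, 24.2 and 29.9 CPM at 0 h PCS and 10.7, 12.7 and 10.2 CPM at 6 h PCS. Gata3, a zinc finger factor of the GATA class needed for lens fiber differentiation, had 11.5, 11 and 16.7 CPM and then 4.63, 6.52 and 3.31 CPM. Tfap4, a helix-loop-helix factor, had 6.67, 6.81 and 5.61 CPM and then 1.68, 3.01 and 2.41 CPM. In all 3 the libraries of the time points were apart, as the rule asks. Etv1, an ETS factor downstream of FGF signalling, had 20.6, 19.9 and 18.9 CPM and then 10.9, 11.8 and 11.2 CPM. Sall1, a zinc finger factor of the spalt class (chr8:89027242-89044162), had 69.6, 54.9 and 68.0 CPM and then 34.1, 34.1 and 34.5 CPM. Plag1, a zinc finger factor that activates growth factor genes, had 12.4, 14.8 and 21.5 CPM and then 7.85, 8.09 and 4.58 CPM. At 6 h PCS the libraries of Etv1 and Sall1 were nearly equal, while Plag1 spread widely at both times.

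Outside the rule, Sox2 fell from 54.4 ± 3.68 to 33.5 ± 3.28 CPM (SD, n = 3; edgeR FDR 0.0151), next to the larger difference of Sox2ot, within whose locus it lies. Prox1, which drives fiber differentiation, fell from 644 ± 32.6 to 383 ± 50.7 CPM (edgeR FDR 0.0119), and Pitx3 from 56.9 ± 3.89 to 31.3 ± 4.10 CPM (edgeR FDR 0.00777). Sox1, Sall2, Prrx1 and Etv5 were called lower as well. The 5 not called with all libraries were Pax6, Msx1, Sox12, Meis1 and Foxe3. The log2 fold changes of Meis1 (0.15) and Foxe3 (0.28) were above 0. The count of 13 was 3, 7 and 4 without 0 h replicate 1, 2 and 3, and 13, 9 and 9 without 6 h replicate 1, 2 and 3, while the median of the list stayed between -0.86 and -0.77.

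**Figure D4:**
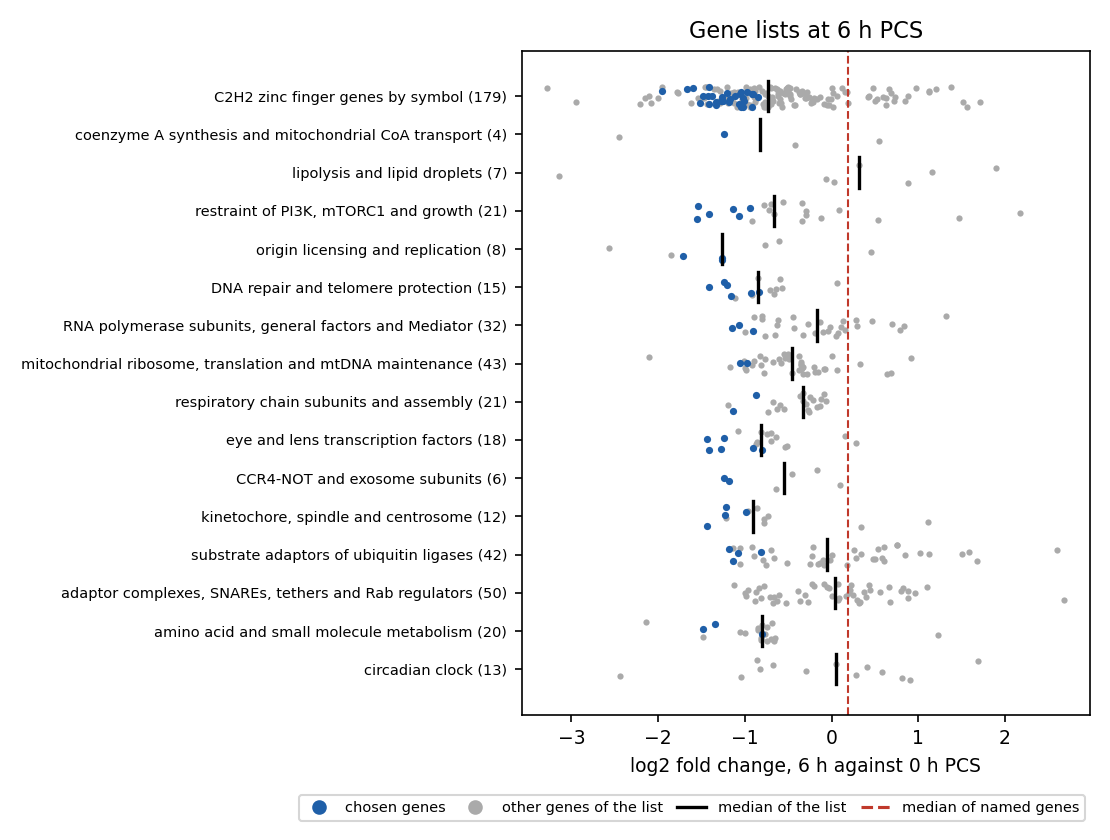
Log2 fold change of 6 h against 0 h PCS (x axis) of the named genes tested in each list (rows, with the number of genes), with chosen genes in blue, other genes in grey and the median of each list as a black bar. The medians of the eye and lens factors (-0.81), metabolism (-0.81) and replication (-1.27) lie to the left of the median of all named genes (dashed, 0.19), and those of the clock and of vesicle traffic lie near 0.

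Genes of DNA replication and repair were present in small numbers. On the replication list of 26 symbols, 8 were tested under a name. Of these 8, edgeR called 4 lower (50%, against 5.02% of the named genes) at an FDR of at most 0.05 and none higher. Cdc25a, Cdca7 and Orc5 are among the 126. Cdca7, a Myc and E2F target that activates the chromatin remodeler Hells, had 9.55, 9.18 and 13.6 CPM at 0 h PCS and 4.77, 3.15 and 1.99 CPM at 6 h PCS. Orc5, a subunit of the origin recognition complex, had 7.96, 8.74 and 8.03 CPM and then 4.83, 2.47 and 3.01 CPM. The fourth gene, Rfc3 of the clamp loader, fell from 5.01 ± 1.79 to 1.39 ± 0.248 CPM (SD, n = 3; edgeR FDR 0.0249). On the repair list of 39 symbols, 8 of the 15 tested under a name (53.3%) were called lower and none higher, and 6 belong to the 126. Dclre1b, a nuclease of telomere ends, had 6.88, 6.38 and 5.22 CPM and then 2.48, 2.70 and 1.75 CPM. Pot1a, which binds the single-stranded telomere end, had 15.2, 13.2 and 14.9 CPM and then 6.31, 7.46 and 4.94 CPM. Xpa of nucleotide excision repair had 15.1, 14.4 and 14.2 CPM and then 8.59, 8.18 and 7.65 CPM, and Etaa1, an activator of the kinase ATR, had 14.9, 16.0 and 24.5 CPM and then 9.40, 8.81 and 6.57 CPM. Dclre1b and Pot1a protect telomeres, and Terf2, which binds telomeric repeats and lies outside the rule, fell from 26.2 ± 3.56 to 14.5 ± 1.76 CPM (edgeR FDR 0.0201). Of the replication genes, 3 were called lower without 6 h replicate 1 and 0 or 1 without any other library. Of the repair genes, 6 were called lower without 6 h replicate 1 and 1 to 3 without any other library.

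The list of kinetochore, spindle and centrosome genes held 4 chosen genes, and edgeR called 6 of its 12 tested genes lower (50%) and 1 higher (8.33%) at an FDR of at most 0.05, against 5.02% and 16.2% of the named genes. Haus4 of the augmin complex had 8.05, 10.6 and 9.71 CPM at 0 h PCS and 3.36, 4.77 and 2.29 CPM at 6 h PCS. Ska2 of the outer kinetochore had 13.5, 12.4 and 9.19 CPM and then 5.84, 5.76 and 3.31 CPM. Wdr62, a spindle pole protein, had 5.38, 5.83 and 6.78 CPM and then 2.95, 3.15 and 1.63 CPM, and Cep97, a centriolar protein that restrains cilium formation, had 10.7, 9.80 and 12.5 CPM and then 5.44, 6.48 and 4.76 CPM. Wdr62 did not pass the test (edgeR FDR 0.0686). Haus8, another augmin subunit, went the other way and rose from 10.5 ± 1.32 to 22.8 ± 3.29 CPM (SD, n = 3; edgeR FDR 0.00834). Whichever library was left out, 0 to 2 genes of this list were called lower.

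The machinery of transcription and RNA decay had few members. Of 32 tested genes for RNA polymerase subunits, general factors and Mediator, edgeR called 2 lower and 3 higher at an FDR of at most 0.05, or 6.25% and 9.38%, against 5.02% and 16.2% of the named genes, and 3 belong to the 126. Cdk7, the kinase of TFIIH, had 19.4, 18.9 and 23.2 CPM at 0 h PCS and 6.85, 8.63 and 12.2 CPM at 6 h PCS. Polr2d, a subunit of RNA polymerase II, had 9.29, 9.44 and 8.33 CPM and then 5.37, 5.26 and 2.23 CPM, and Gtf3a, the zinc finger factor TFIIIA for 5S rRNA genes, had 8.30, 10.6 and 9.84 CPM and then 4.77, 5.17 and 5.42 CPM. Cdk7 passed the test, but Polr2d (edgeR FDR 0.0949) and Gtf3a (edgeR FDR 0.0521) did not. The other gene called lower was Gtf2h2, which lies outside the rule. Among 6 subunits of the CCR4-NOT complex and the exosome, the 2 called lower (33.3%) are both chosen genes. Cnot8, a deadenylase subunit that shortens poly(A) tails, had 26.6, 35.1 and 30.3 CPM and then 10.3, 17.5 and 12.8 CPM. Exosc5, a core exosome subunit, had 7.19, 8.45 and 13.1 CPM and then 4.63, 4.05 and 3.43 CPM. Of the transcription list, 7 genes were called lower with DESeq2 or without the filter on low counts, 5 with the exact test or the later quasi-likelihood method of edgeR and 12 with library size alone. Of that list 0 to 2 genes were called lower without 1 library, none without 0 h replicate 1 or 3, and of the decay list 1 or 2. The 3 higher calls of the transcription list were 1 or 2 without 1 library.

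Mitochondrial and metabolic genes were present too. Slc25a16, a mitochondrial carrier linked to coenzyme A transport (chr10:62920632-62946494), had 12.5, 15.7 and 11.05 CPM at 0 h PCS and 4.497, 4.86 and 7.29 CPM at 6 h PCS. It and Ppcs were the 2 of 4 tested coenzyme A genes that edgeR called lower at an FDR of at most 0.05. On the list of lipolysis genes G0s2 alone of 7 was called, and the median of that list was 0.31. Of 43 tested genes of mitochondrial gene expression 5 were called lower (11.6%) and 2 higher (4.65%), against 5.02% and 16.2% of the named genes. Gtpbp8, a mitochondrial GTPase, had 9.90, 10.9 and 12.8 CPM and then 5.64, 5.44 and 5.96 CPM, and Rbfa, a ribosome assembly factor, had 14.1, 12.1 and 9.75 CPM and then 5.64, 5.62 and 6.02 CPM. Of 21 respiratory chain genes 4 were called lower (19%) and none higher, although all 21 had a log2 fold change below 0. The same sign was found in 2565 of the 6372 named genes. Etfrf1, a regulator of the electron transfer flavoprotein, had 12.2, 14.7 and 13.9 CPM and then 5.24, 6.79 and 6.51 CPM. Ndufc1 of complex I had 12.6, 13.8 and 11.1 CPM and then 6.04, 7.28 and 7.23 CPM. These counts were small and moved with the tool and with single libraries. Genes of mitochondrial gene expression called lower numbered 11 with DESeq2, 10 with the exact test of edgeR, 9 without the filter on low counts and 15 with library size alone. They numbered 5 without 6 h replicate 1 and 0 or 1 without any other library. Higher calls numbered 2 without 6 h replicate 2 and 0 without any other library or with library size alone. Of the respiratory chain genes, 0 to 2 were called lower whichever library was left out. Both coenzyme A genes lost the call without 0 h replicate 1 and 1 of them without 0 h replicate 2 or 6 h replicate 2, and G0s2 kept it only without 6 h replicate 2.

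Of 20 tested genes of amino acid and small molecule metabolism, edgeR called 12 lower (60%) and 1 higher (5%) at an FDR of at most 0.05, against 5.02% and 16.2% of the named genes, and Napepld, Etnppl and Prodh are chosen genes. Etnppl, which breaks down phosphoethanolamine, had 11.7, 17.6 and 13.6 CPM at 0 h PCS and 2.68, 7.19 and 5.36 CPM at 6 h PCS. Prodh, the first enzyme of proline breakdown, was given above. Outside the rule, Ass1 of arginine synthesis fell from 421 ± 35.9 to 241 ± 63.7 CPM (SD, n = 3; edgeR FDR 0.0302) and Alad of haem synthesis from 87.9 ± 9.56 to 48.9 ± 10.7 CPM (edgeR FDR 0.0173), while Mat2a, which makes S-adenosylmethionine, rose from 96.5 ± 4.37 to 227 ± 43.8 CPM (edgeR FDR 0.00175). The count of 12 was 3, 6 and 3 without 0 h replicate 1, 2 and 3, and 9, 12 and 5 without 6 h replicate 1, 2 and 3.

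Among 42 substrate adaptors of ubiquitin ligases, edgeR called 10 lower (23.8%) and 5 higher (11.9%) at an FDR of at most 0.05, against 5.02% and 16.2% of the named genes, and the median log2 fold change was -0.05. Beside Klhl24, the chosen genes were Kctd6 (29.3, 22.04 and 29.3 CPM at 0 h PCS, then 12.4, 11.8 and 11.4 CPM at 6 h PCS), Kctd5 (23.2, 25.6 and 22.7 CPM, then 13.7, 10.8 and 9.34 CPM) and Fbxo7 (17.5, 16.7 and 19.5 CPM, then 11.01, 10.6 and 9.04 CPM). Kctd11, an adaptor of the same family as Kctd5 and Kctd6, rose from 4.23 ± 1.17 to 25.6 ± 7.05 CPM (SD, n = 3; edgeR FDR 0.000732). Without 1 library, 4 to 7 of the 42 were called lower, 4 without 0 h replicate 3 or 6 h replicate 2 and 6 without 0 h replicate 1 or 2. The excess of lower over higher calls did not hold in every fit, with 5 higher without 0 h replicate 3, 8 higher against 7 lower without 6 h replicate 1 and 4 higher without 6 h replicate 2. It was 10 higher against 11 lower without the filter on low counts and 8 against 12 with DESeq2. Of 50 genes of vesicle traffic, 9 were called lower (18%) and 3 higher (6%), and none is among the 126. The count of 9 was 5 without 6 h replicate 1, 3 without 6 h replicate 2 and 0 or 1 without any other library, while that of 3 higher was 2 to 5, with 5 higher against 1 lower without 0 h replicate 2. Without the filter it was 6 higher against 14 lower, and with DESeq2 5 against 13. Of 13 circadian clock genes, 4 were called lower (30.8%) and 2 higher (15.4%), and the higher calls numbered 2 without 6 h replicate 2 and 1 without any other library. None of these is among the 126, in part because Ciart and Tef met the rule and were left out by name.

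In no list were 54 of the 126 genes, 46 of them with a symbol. From these, the following were named after their values had been seen, as genes with a known role. Fzd1, a Wnt receptor, had 53.5, 63.4 and 66.6 CPM at 0 h PCS and 23.5, 35.0 and 23.6 CPM at 6 h PCS. Casp2, an initiator caspase, had 12.1, 16.1 and 15.8 CPM and then 2.75, 6.61 and 3.25 CPM, which left 28.6% of its 0 h mean. Sinhcaf, a subunit of the Sin3 histone deacetylase complex, had 50.6, 48.0 and 51.6 CPM and then 20, 24.96 and 25.6 CPM. The highest 6 h library was replicate 2 for Fzd1 and Casp2, and for Fzd1 it lay near the limit of the rule. Tfdp2, the dimer partner of E2F factors, had 42.0, 38.1 and 42.9 CPM and then 22.8, 21.9 and 21.1 CPM. Mtmr7, a phosphoinositide phosphatase, had 44.5, 38.6 and 40.8 CPM and then 24.4, 19.7 and 20.2 CPM. Stard4, a cholesterol transfer protein, had 24.9, 19.9 and 19.4 CPM and then 11.9, 10.3 and 12.2 CPM. Trim24, a cofactor of nuclear receptors, had the smallest difference of the 126, with 49.3, 53.6 and 53.7 CPM and then 32.4, 32.6 and 32.5 CPM. Its small difference met the rule because its replicates were nearly equal.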

How the data were processed

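RNAseq of wild type LECs covered 3 libraries at 0 h PCS and 3 at 6 h PCS, made with a stranded kit for ribodepleted total RNA. Read pairs of 101 nt were aligned by the authors to GRCm38.p6 with HISAT2 and counted per Ensembl gene with HTSeq, and the deposited values are raw counts. The strand setting of the counting is not given in the sources used here. The 5 summary rows were left out, and gene counts were 33.6% to 41.2% of the pairs listed. The counts were analysed with edgeR 4.0.16 (filterByExpr by time point, TMM, robust dispersions, quasi-likelihood F-test in its earlier form), which was tested on simulated data, with DESeq2 1.42.0 as an alternative, in R 4.3.3. A standard error (SE) is the absolute log2 fold change over the square root of F. The replicates are separate pools, and p-values measure the spread between these pools only.

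The chosen genes and all lists were picked with earlier results of these data known. The text names G0s2 and Ppcs, the 12 named genes with the widest gap (predicted and clone-named genes left out), the 5 most abundant, up to 4 chosen genes per list (8 zinc finger genes, 6 growth and 6 eye genes), and 3 genes on either side of each threshold. Genes of the lists outside the rule were named after their values had been seen. Symbols and exon lengths came from identifier columns of the study's supplementary tables (118 of the 126 genes, 6372 of 16810 tested), and coordinates from RefSeq by symbol. The 8 genes without a symbol could not be compared with the names left out. Of the listed growth symbols 21 of 29 were tested, of eye factors 18 of 24, of replication 8 of 26 and of repair 15 of 39. For the spindle it was 12 of 24, for metabolism 20 of 22 and for the clock 13 of 20. For coenzyme A it was 4 of 10 and for lipolysis 7 of 19. The rest had no name here or were not tested, so the shares called hold for named genes only. Zinc finger genes were taken by symbol. Zfp36l1, Zfp36l2 and Zfp185, of other classes, were removed after the values had been seen. The same alternatives as in the closing section were tried, each library left out in turn among them.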

Additional observations from a re-analysis of the deposited data

How the results depend on the processing

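The rule took 241 genes with a level of 1 CPM, 71 with 10 CPM, 471 with a looser ratio between 1 and 1.5, 10 with a ratio of 2, 507 with library size alone, and 181 to 331 without 1 library. It took 117 with the size factors of DESeq2, 136 without a filter on low counts and 117 with at least 10 counts in every sample. The genes called lower at 6 h numbered 340 by edgeR, 1827 with library size alone, 667 without the filter, 623 with DESeq2, and 58 to 317 without 1 library (58, 159 and 91 without 0 h replicate 1, 2 and 3, and 317, 216 and 211 without 6 h replicate 1, 2 and 3). Zinc finger genes called lower at 6 h, 51 by edgeR, numbered 105, 82 and 89 in the same 3 settings, and 10 to 37 without 1 library. With library size alone, genes called lower in the lists numbered 19 for metabolism, 14 for repair, 7 for replication, 7 for the respiratory chain, 10 for the spindle and 15 for vesicle traffic. Vesicle genes called lower were 14 without the filter and 5 without robust estimation. The median log2 fold change of the 126 genes, -1.13, was -1.43 with library size alone and -1.23 to -1.05 without 1 library. The cause of these shifts was not tested, except that fewer libraries make the rule easier to meet and the test harder to pass.

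A replicate block on the shared numbers gave 357 genes called lower, 59 of them zinc finger genes, and a median of -1.15 for the 126 genes. It also gave 6 vesicle genes called higher in place of 3. The labels give the libraries a number but no pairing, so they were not taken as pairs, although pools may share mice. The deviations of same-numbered libraries correlated at -0.01, 0.31 and 0.17, and replicates 2 and 3 but not 1 correlated best with their own number.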
